A study of Arabidopsis thaliana with 6 samples.

Results

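The peaks bound by TT1-GFP in induced seedlings of *Arabidopsis thaliana* are described here from the deposited peak list of 1 ChIP-seq library. All 12908 deposited peaks of that list were used, of 36522 peaks in the 3 lists of the series. Of the 6 libraries of the series, the *Dex:TT1-GFP* line gave 1 ChIP and 1 input sample, and the others belong to a second WIP protein, NTT, whose lists are not compared here. The *Dex:TT1-GFP* line carries a TT1-GFP fusion under the pOp6 promoter in Col-0 plants that carry an activator, given in the methods as LhG4, under the broadly active 35S promoter. The fusion was induced with dexamethasone (Dex), and the peak list holds no measure of where or how strongly it was expressed. In wild type plants *TT1* is expressed in the endothelium of the seed coat, a tissue that is not part of the seedling body. Seedlings 7 days old were treated with 1 µM Dex for 8 h and fixed with 1% formaldehyde, chromatin was sheared to about 300 bp, and DNA was precipitated with an antibody against GFP. Peaks were called over the input of the same line, and no untagged or uninduced library was used as a control. One supplementary table of the study prints the coordinates of this peak list under NTT and another prints them under TT1, and the sample label, TT1, was followed. There is 1 ChIP library, so no value below has an error between replicates and no test between conditions was possible. The number of reads is not given in the list, so the depth is unknown, and where no peak is listed at a gene, binding below the detection limit of the library cannot be told from none. The 95% intervals printed with shares are Wilson intervals and cover counting error only.

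WIP proteins are a small plant family of C2H2 zinc finger proteins, named after 3 conserved amino acids. TT1 (TRANSPARENT TESTA 1, *AtWIP1*) is required for the accumulation of proanthocyanidins, the flavonoid polymers that colour the seed coat brown. In a ChIP-seq experiment, chromatin fragments crosslinked to the tagged protein are sequenced, and a peak marks a stretch where they pile up above the input. The summit is the highest base of the pile, and the fold enrichment is the pileup there divided by the local background from the input. A peak can come from direct contact of the protein with DNA or from contact through other proteins, which the assay cannot separate.

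The sequence at the summits of the strongest peaks is shown first, since the motifs counted further on were searched in such windows. Each line gives the summit base and 50 bp to either side, written 5′ to 3′ on the strand of the target gene. The windows are those of the strongest peaks of protein-coding target genes that overlap no annotated exon. Capitals mark the matches to 3 motifs on either strand. The W-box was searched as TTGACC and, with the other pyrimidine at its end, as TTGACT. The GAGA repeat was searched as GAGAGAG. The core of many bZIP and bHLH sites was searched as ACGTG. The G-box is this core with a C before it, CACGTG, and so is marked as well.

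ALDH3H1: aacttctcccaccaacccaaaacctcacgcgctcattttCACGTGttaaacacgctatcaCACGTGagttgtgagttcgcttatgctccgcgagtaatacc
BZIP60: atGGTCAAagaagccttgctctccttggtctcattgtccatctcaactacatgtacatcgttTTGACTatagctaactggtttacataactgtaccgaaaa
AT1G10650: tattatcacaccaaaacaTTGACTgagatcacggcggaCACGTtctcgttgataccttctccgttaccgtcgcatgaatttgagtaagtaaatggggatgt
B120: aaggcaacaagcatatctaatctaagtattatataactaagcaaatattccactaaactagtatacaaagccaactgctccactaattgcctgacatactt
AT1G76600: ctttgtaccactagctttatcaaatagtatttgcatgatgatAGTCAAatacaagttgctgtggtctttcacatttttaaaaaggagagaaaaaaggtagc
AT1G21835: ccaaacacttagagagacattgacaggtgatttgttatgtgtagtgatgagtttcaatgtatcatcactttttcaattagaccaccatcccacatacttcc

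These windows lie in TAIR10 at chr1:16801008-16801108, minus strand, for *ALDH3H1* (AT1G44170), at chr1:16137849-16137949, minus strand, for *BZIP60* (AT1G42990), and at chr1:3527627-3527727, minus strand, for AT1G10650. The others lie at chr4:11398284-11398384, minus strand, for *B120* (AT4G21390), at chr1:28745721-28745821, plus strand, for AT1G76600, and at chr1:7664200-7664300, plus strand, for AT1G21835. All 6 are intergenic. The *ALDH3H1* window, at the strongest peak of a protein-coding target, holds 2 G-boxes. The *BZIP60* window holds 2 W-boxes. AT1G10650 has 1 W-box and 1 ACGTG, and AT1G76600 has 1 W-box. The *B120* and AT1G21835 windows hold none of the motifs searched.

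Peak strength covered a narrow range among the peaks that passed the authors' q-value threshold. Regions that did not pass it are not in the list, so the lower end of the range depends on that threshold. The fold enrichment ran between 2.1 and 10.5, with a median of 3.99 and quartiles of 3.33 and 5.05. Only 156 peaks reached a fold enrichment of 8, 26 reached 9 and 4 reached 10. The most populated bin of the histogram lay between 3.25 and 3.5, and no bin above it was empty up to 10.5. The −log10 q of the peaks lay between 9.41 and 206 with a median of 39.8, and it ordered the peaks almost as the fold enrichment did (Spearman rho 0.99 across the 12908 peaks, all from 1 library).

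**Figure D1:**
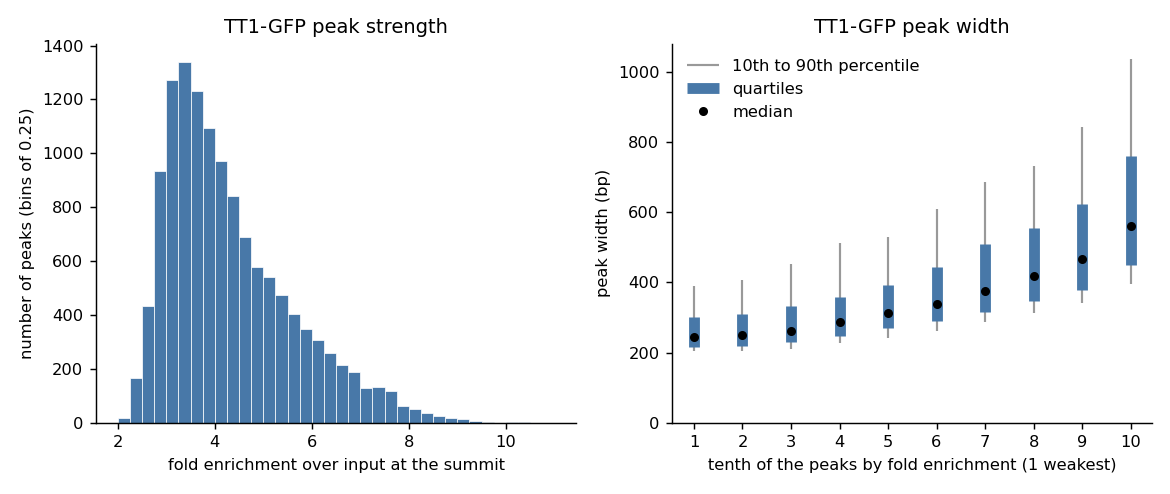
Left, number of TT1-GFP peaks by fold enrichment over input, in bins of 0.25. Right, peak width in bp for each decile of the peaks by fold enrichment, with the median (point), quartiles (thick bar) and 10th to 90th percentiles (thin line), where the median width is 244 bp in the weakest decile and 561 bp in the strongest decile.

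Stronger peaks were wider. The median width was 249, 293, 367 and 496 bp in the 4 quartiles of fold enrichment from weakest to strongest, and rho between fold enrichment and width was 0.66 across peaks. The caller sets the edges of a peak by a threshold, so both measures share the same pileup. Over all peaks the width had a median of 343 bp with quartiles of 266 and 474 bp, and the peaks together covered 5247517 bp or 4.40% of the nuclear genome. At least 1000 bp wide were 307 peaks, and 9 peaks were at least 2000 bp wide. The 100 widest peaks had a median fold enrichment of 6.55, against 3.99 for all peaks, and a lowest value of 3.28, and 9 of them were among the 100 strongest. In peaks under 500 bp the summit lay in the central part of the peak, when it is cut into 3 equal parts, in 90.8% of cases, against 33.2% in the peaks of 1000 bp or more. The list gives 1 summit for each peak, so a wide peak with several maxima is counted once.

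The widest peak of a target spanned 3045 bp at chr1:6619258-6622302, with its summit 75 bp upstream of the long non-coding RNA gene AT1G05473 and a fold enrichment of 7.67. The next were a peak of 2132 bp at AT5G14110, a gene of unknown function (fold enrichment 6.61), and one of 2082 bp at *OLI2* (7.38), which encodes an RNA methyltransferase-like protein. *URH1*, a uridine hydrolase gene, had a peak of 2078 bp (6.97), and the long non-coding RNA gene AT2G08950 had one of 2072 bp with a fold enrichment of 4.96. All 5 lay within 1000 bp of their start sites, and none was among the 20 strongest protein-coding targets.

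The share of summits near a start site was alike in strong and weak peaks. Of all summits, 53.3% (52.4 to 54.1) lay within 500 bp of an annotated transcription start site. In the quartiles from weakest to strongest this share was 53.1, 53.1, 54.0 and 52.8%. Summits more than 500 and up to 1000 bp downstream of a start site made up 5.08% (4.38 to 5.89) of the weakest quartile and 2.54% (2.05 to 3.14) of the strongest. Summits more than 1500 bp upstream made up 8.77% (7.84 to 9.80) of the weakest quartile and 11.8% (10.7 to 13) of the strongest. The median distance from the start site was −39, −35, −42 and −90 bp in the quartiles from weakest to strongest.

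**Figure D2:**
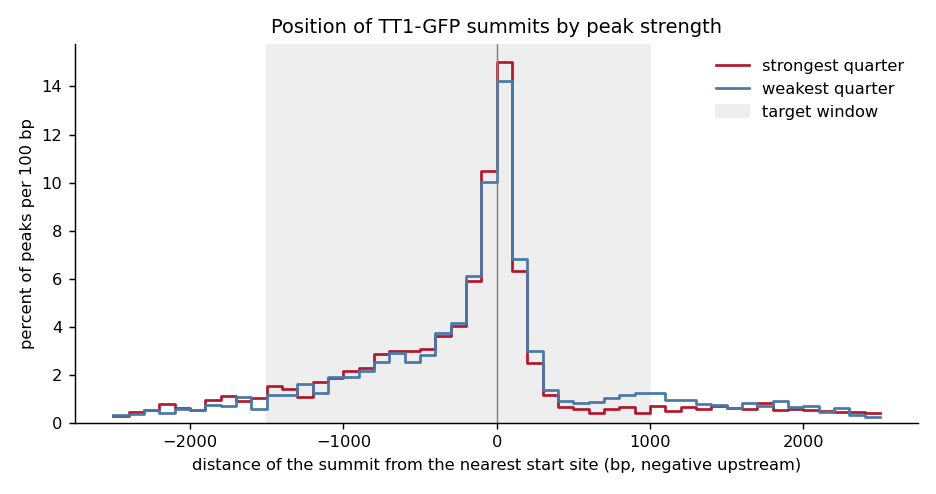
Percent of peaks per 100 bp by the distance of the summit from the nearest transcription start site, for the strongest and the weakest quartile of the TT1-GFP peaks by fold enrichment. In the 100 bp just downstream of a start site lie 15% of the strongest and 14.2% of the weakest quartile, and the grey area is the target window.

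The annotation at the summit was uneven. The 5′ UTR of protein-coding genes held 23.2% (22.5 to 23.9) of the summits and makes up 4.52% of the genome. Intergenic sequence held 55.7% (54.8 to 56.5) of the summits, against 35.9% of the genome. Coding sequence held 7.86% (7.41 to 8.34), against 28.3% of the genome, and introns held 4.69% (4.34 to 5.07), against 16.4% of the genome. The 3′ UTR was near its part of the genome, at 5.07% (4.70 to 5.46) against 5.35%. The share in coding sequence was 10.4, 8.80, 7.19 and 5.11% in the quartiles from weakest to strongest, and the intergenic share was 51.4, 54.4, 56.5 and 60.3%. Peaks followed the genes along the chromosomes: per complete Mb there were between 1 and 196 summits, with a median of 119, and rho with the number of protein-coding genes was 0.79 over 116 bins.

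Target genes were those whose start site lay nearest to a summit, with the summit at most 1500 bp upstream or 1000 bp downstream of that site. This held for 9928 peaks, 76.9% of all, and gave 8457 target genes. Of the protein-coding genes, 7391 of 27444 or 26.9% were targets, and this share is the background for every gene class below. Genes that are not protein-coding were targets less often, 1066 of 10455 or 10.2% (9.63 to 10.8), among them 640 long non-coding RNA genes. For 24.5% (23.7 to 25.4) of the target peaks the summit also lay in the window of another protein-coding gene, so that the choice of the nearest start site decided the target. Near the edges of the window, 180 summits lay in the last 100 bp inside the upstream edge and 121 in the first 100 bp outside it, and 104 lay inside and 114 outside the downstream edge.

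The strongest target peak of all was at a long non-coding RNA gene, AT5G09170, with a fold enrichment of 10.5 at chr5:25436743-25437379 and the summit about 100 bp downstream of its start. Among protein-coding genes, *ALDH3H1*, an aldehyde dehydrogenase gene, came first (10.3, summit at −737 bp, negative values being upstream of the start site, peak at chr1:16800814-16801323). *PIL5* (AT2G20180), also known as PIF1, a phytochrome-interacting bHLH factor that holds back germination in the dark, followed with 9.58 and a summit at 159 bp. *BZIP60*, a factor of the unfolded protein response, had 9.45 at −436 bp, and AT1G10650, an S-ribonuclease binding family gene, had 9.44 at −1146 bp. *B120*, an S-locus lectin kinase gene, had 9.38 at −608 bp and a second, weaker peak.

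The 20 strongest protein-coding targets were of mixed function. *FLS2* (AT5G46330), the receptor for bacterial flagellin, had a fold enrichment of 9.01 in a peak of 1034 bp with the summit 1 bp upstream of its start. *SIB1* (AT3G56710), a sigma factor binding protein that also partners WRKY factors, had 8.93 at 249 bp, and the thionin family gene AT1G21835 had 9.24 at −1414 bp. *WES1* (AT4G27260), a GH3 enzyme that conjugates auxin and salicylic acid to amino acids, had 8.84 in the stronger of 2 peaks. *UBQ14* encodes polyubiquitin (9.10), *GAE1* an epimerase that makes a precursor of pectin (9.19), *CHR4* a chromatin remodelling protein (8.91) and AT5G20840 a phosphoinositide phosphatase (9.14). *NTT1* (AT1G80300, 9.16) is a plastid nucleotide transporter gene and is unrelated to the WIP gene *NTT*. The remaining members of the 20 were AT1G76600, AT1G77500, AT4G33565, AT1G64610, AT1G47130 and AT3G49810, with fold enrichments between 8.82 and 9.25. By the −log10 q the first 5 targets were AT5G09170 (206), *ALDH3H1* (199), AT1G77500 (193), *B120* (191) and the long non-coding RNA gene AT3G02605 (189).

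More than 1 peak was found at 1325 target genes, 15.7% of all targets. There were 1189 genes with 2 peaks, 128 with 3, 6 with 4 and 2 with 5. Among protein-coding genes 1190 had 2 or more peaks, which is 4.34% of the 27444. When a peak was given to every gene whose window held its summit, an alternative chosen after seeing the data, 2284 genes had 2 or more. Neighbouring summits of a gene were at least 322 bp apart, with a median of 800 bp and quartiles of 600 and 1073 bp. Each summit was placed upstream or downstream of the start site nearest to it. In 786 of the 1325 genes, 59.3%, both positions occurred, in 455 all summits lay upstream and in 84 all lay downstream. A gene can have several annotated start sites, so the positions of its summits need not refer to the same one.

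The peaks of these genes were about as strong as the others. Their median fold enrichment was 3.91 over 2796 peaks, against 4.02 for the 7132 genes with a single peak, and the median widths were 345 and 341 bp. Within a gene the strongest peak exceeded the second by a median of 1.29 times, with an upper quartile of 1.58 and a highest ratio of 3.43. In the 1189 genes with 2 peaks rho between the strengths of the pair was 0.04 across genes. Protein-coding genes with 2 or more peaks had a median of 2100 bp to the next annotated gene upstream, against 1003 bp for genes with 1 peak and 598 bp for genes without one. Their median gene lengths were 2471, 2389 and 1958 bp. The part of this spacing in the counts was not tested.

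**Figure D3:**
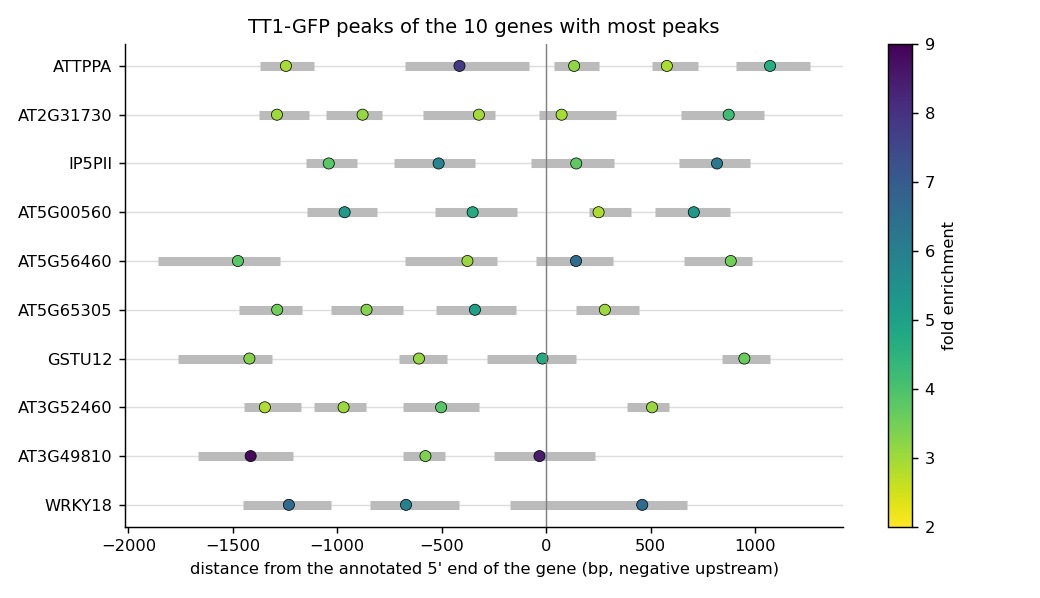
Summits (points, coloured by fold enrichment) and extents (grey bars) of the TT1-GFP peaks of the 10 target genes with most peaks, by distance in bp from the annotated 5′ end of each gene. Ties in the number of peaks were ordered by summed fold enrichment, so AT3G49810 and *WRKY18*, with 3 peaks each, are there because their peaks are strong.

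*ATTPPA* (AT5G51460), a trehalose 6-phosphate phosphatase gene, had 5 peaks. Counted from its annotated 5′ end they lay at −1246, −415, 134, 578 and 1072 bp, with fold enrichments of 2.92, 7.82, 3.19, 2.88 and 4.66, so that 1 peak stood well above the other 4. The bHLH gene AT2G31730 also had 5 peaks, but all were weak, with fold enrichments between 2.93 and 4.19. *IP5PII* (AT4G18010), an inositol polyphosphate 5-phosphatase gene, had 4 peaks, of which those at −515 bp (5.85) and 818 bp (6.20) were the strongest. *GSTU12* (AT1G69920), a glutathione S-transferase gene, had 4 between 3.15 and 4.71, and the kinase gene AT5G56460 had 4 between 3.07 and 6.53. AT3G52460, annotated as a hydroxyproline-rich glycoprotein, had 4 peaks between 2.84 and 3.85. The misc_RNA gene AT5G00560 and the tRNA-Met gene AT5G65305 had 4 peaks each, and those of AT5G00560 lay between 2.87 and 5.20.

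AT3G49810, an ARM repeat protein gene, carried 2 of the strongest peaks of the list, 8.82 at −1415 bp and 8.49 at −32 bp, with a weak one of 3.38 between them. *WRKY18* (AT4G31800), a WRKY factor that acts in defence, had 3 peaks of nearly equal strength, 6.60, 5.98 and 6.58, at −1232, −671 and 460 bp from its 5′ end. The summit windows of AT3G49810 and *WRKY18* that overlap no exon are shown to compare the peaks of 1 gene, with capitals as above. A single intron window of AT5G56460 is shown as well, and the windows of the other genes with most peaks are not.

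AT3G49810, far upstream: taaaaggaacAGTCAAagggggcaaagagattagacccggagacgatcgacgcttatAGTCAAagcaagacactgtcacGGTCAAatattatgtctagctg
AT3G49810, middle: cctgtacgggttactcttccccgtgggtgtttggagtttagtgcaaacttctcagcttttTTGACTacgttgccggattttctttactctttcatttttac
WRKY18, far upstream: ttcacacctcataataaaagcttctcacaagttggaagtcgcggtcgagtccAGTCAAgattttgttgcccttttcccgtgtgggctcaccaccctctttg
WRKY18, middle: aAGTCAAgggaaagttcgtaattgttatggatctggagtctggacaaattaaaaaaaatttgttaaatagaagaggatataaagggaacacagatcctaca
AT5G56460, intron: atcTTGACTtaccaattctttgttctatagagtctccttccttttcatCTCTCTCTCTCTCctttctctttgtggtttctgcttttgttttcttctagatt

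They lie at chr3:18478397-18478497, minus strand, and chr3:18477560-18477660, minus strand, for AT3G49810, at chr4:15381495-15381595, plus strand, and chr4:15382056-15382156, plus strand, for *WRKY18*, and at chr5:22865908-22866008, plus strand, for AT5G56460. The strong upstream peak of AT3G49810 has 3 W-boxes in its window and the weak one has 1. Each of the *WRKY18* windows has 1 W-box. The window in an intron of AT5G56460, at a weak peak of 3.51, holds 1 W-box and a run of CT repeats with 4 overlapping matches to the GAGA repeat. The windows of that gene at −1476 and −377 bp, not shown, hold none of the motifs searched. Among the other genes with most peaks, the exon-free windows of *GSTU12* and AT5G00560 hold none, and those of *IP5PII* hold 1 W-box each. The windows shown are therefore not typical of these genes.

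Which kinds of genes were bound was counted for 37 classes, drawn by symbol or product name, and 4 short lists of genes for processes that the study follows. The classes overlap, and no enrichment test was run. In 17 classes the interval of the share bound lay above 26.9%, in 7 it lay below and in 13 it held that value. Genes with more space upstream were bound more often: the share was 17.5% (16.6 to 18.4) in the quartile of protein-coding genes with the shortest distance to the next gene upstream and 39.2% (38 to 40.3) in the quartile with the longest. The share among all protein-coding genes with the same mix of these quartiles is therefore plotted beside each class. Against that share 15 of the 37 intervals lay above and 8 below.

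Of the WRKY transcription factor genes, regulators of defence and senescence that bind the W-box, 51 of 74 were targets, 68.9% (57.7 to 78.3), against 33.7% of genes with the same upstream distances. At 24 of the 74 there were 2 or more peaks, 32.4%, against 4.34% of all protein-coding genes and 10.14% of those in the quartile with the longest distance to the next gene upstream. That distance had a median of 2392.5 bp at WRKY genes. The strongest WRKY peaks were at *WRKY47* (8.39), *WRKY60* (8.15) and *WRKY4* (7.69), with summits at −629, −629 and −614 bp. Other transcription factor families were bound at lower shares. AP2/ERF factors, which include the ethylene response factors, had 82 of 173 bound, 47.4% (40.1 to 54.8), with *ERF4* (7.74) and *ERF13* (7.59) at the top. The bHLH factors had 62 of 137, 45.3% (37.2 to 53.6), led by AT2G43140 (7.69) and *BIM1* (7.55), which acts in brassinosteroid signalling. Genes with a homeobox or homeodomain-like product name had 94 of 210, 44.8% (38.2 to 51.5), and NAC factors 45 of 109, 41.3% (32.5 to 50.7), among them *NAC102* (7.98), *NAC019* (7.73) and the senescence regulator *NAP* (7.17). At the same upstream distances the share was 31.4% for AP2/ERF, 32.8% for bHLH, 31.4% for homeobox and 31.5% for NAC genes. MYB factors, with 57 of 158 or 36.1% (29.0 to 43.8), were near the 33.0% of genes with the same upstream distances. MADS-box factors, many of which control flowers and fruits, were bound at 17 of 121 genes, 14.0% (8.96 to 21.4), against 30.5% at the same upstream distances.

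Signalling genes were bound often. The JAZ and TIFY proteins, repressors of jasmonate responses, had 9 of 13 bound, 69.2% (42.4 to 87.3), and the Aux/IAA repressors of auxin responses had 13 of 24, 54.2% (35.1 to 72.1), with *IAA18* (7.19) and *IAA12* (7.06) first. Protein phosphatases 2C, which include the negative regulators of abscisic acid signalling, had 33 of 64, 51.6% (39.6 to 63.4), against 28.8% at the same upstream distances. MAP kinase cascade genes had 23 of 48, 47.9% (34.5 to 61.7), with *MEKK1* at 7.07, and calmodulin-like and EF-hand proteins, which sense calcium, had 48 of 100, 48.0% (38.5 to 57.7). At the same upstream distances the share of all protein-coding genes was 28.5% for JAZ and TIFY and 32.8% for Aux/IAA genes. It was 30.2% for MAP kinase cascade and 27.5% for calmodulin-like and EF-hand genes. Receptor-like kinases with leucine-rich repeats had 112 of 282, 39.7% (34.2 to 45.5), against 28.8%. Their strongest peaks after *FLS2* were at *EMS1* (8.16), a receptor gene of anther development, and LRR XI-23 (7.90). NBS-LRR resistance genes, whose products sense pathogen effectors, had 65 of 158, 41.1% (33.8 to 48.9), against 24.8% at the same upstream distances. Families of detoxification and transport varied. Of the glutathione S-transferases 25 of 56 were bound, 44.6% (32.4 to 57.6), and of the UDP-glycosyltransferases 56 of 131, 42.7% (34.6 to 51.3), against 25.7 and 26.0% at the same upstream distances. Cytochromes P450 had 57 of 248, 23.0% (18.2 to 28.6), against 29.5%, and ABC transporters 21 of 80, 26.3% (17.9 to 36.8), against 29.3%.

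**Figure D4:**
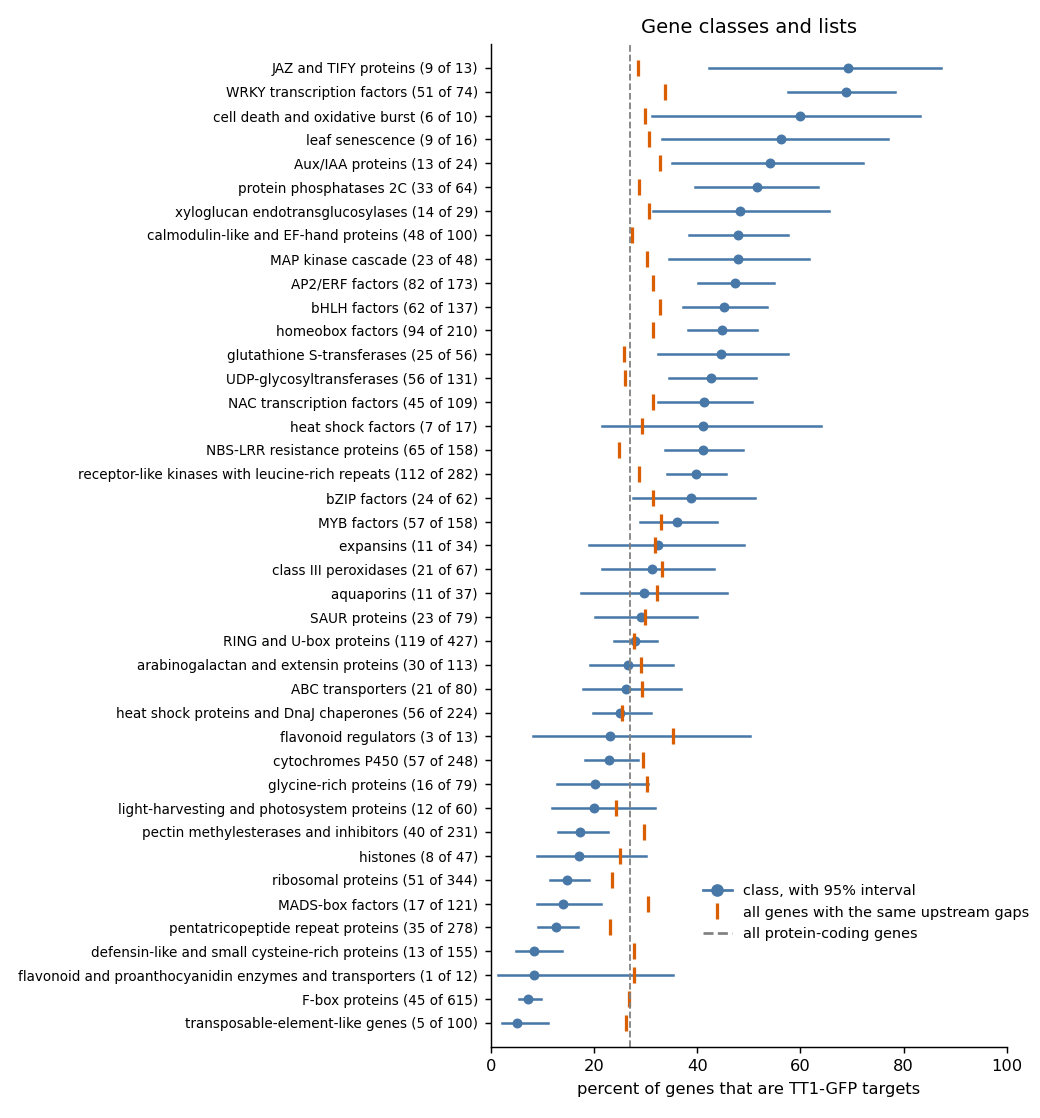
Percent of genes that are TT1-GFP targets in each class or list (point, with 95% Wilson interval, and the number bound of the number in the class). Orange ticks give the share among all protein-coding genes with the same mix of distances to the next gene upstream, and the dashed line is the share of all protein-coding genes, 26.9%.

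Several large gene families were bound seldom. F-box proteins, substrate receptors of ubiquitin ligases and a large family, had 45 of 615 genes bound, 7.32% (5.51 to 9.65), against 26.9% at the same upstream distances, although *TIR1* (7.82), the auxin receptor, and AT5G44220 (7.89) were among them with strong peaks. Defensin-like and small cysteine-rich proteins had 13 of 155, 8.39% (4.97 to 13.8), and pentatricopeptide repeat proteins, which process organelle RNA, had 35 of 278, 12.6% (9.19 to 17.0). Ribosomal proteins had 51 of 344, 14.8% (11.5 to 19.0), and pectin methylesterases and pectin lyase-like proteins had 40 of 231, 17.3% (13 to 22.7). Transposable-element-like genes had 5 of 100, 5% (2.15 to 11.2). At the same upstream distances the share of all protein-coding genes was 27.7% for defensin-like, 23.1% for pentatricopeptide repeat and 23.6% for ribosomal protein genes. It was 29.7% for the pectin class and 26.2% for transposable-element-like genes. With each peak given to every gene in range, the shares were 12.2% for F-box, 16.8% for defensin-like and 23.4% for pentatricopeptide repeat genes, against 33.6% of all protein-coding genes. With the window ending 150 bp downstream the defensin-like share was 3.87%. The authors kept uniquely mapped reads only, so a sequence that has an identical copy elsewhere could not give a peak. The part of this filter in the low shares was not tested. The strength of the peaks varied less than the share bound: the median over the strongest peaks of bound members was 4.16 for F-box genes, 4.82 for WRKY genes and 4.13 for all protein-coding targets.

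Among families of cell growth, xyloglucan endotransglucosylases, which loosen the wall, had 14 of 29 bound, 48.3% (31.4 to 65.6), led by *XTH19* (6.62), against 30.7% at the same upstream distances. Expansins had 11 of 34, 32.4% (19.1 to 49.2), against 31.8%, and the intervals of these 2 families overlap. SAUR genes, induced by auxin, had 23 of 79, 29.1% (20.3 to 39.9), against 29.8% at the same upstream distances, with AT1G56150 at 8.23. Light-harvesting and photosystem genes had 12 of 60, 20% (11.8 to 31.8), against 24.3% at the same upstream distances, which the interval holds.

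Of 12 genes for flavonoid and proanthocyanidin enzymes and transporters, the pathway for which TT1 is named, 1 was a target, 8.33% (1.49 to 35.4), against 26.9% of all protein-coding genes and 27.7% at the same upstream distances. The interval holds both values. With each peak given to every gene in range the share was 25% (8.89 to 53.2), so the count depends on the choice of the nearest start site. The 1 target was *DFR*, the dihydroflavonol reductase gene, with a fold enrichment of 4.6 at −102 bp. By the nearest start site no target peak was detected at *CHS*, *CHI*, *F3H*, *FLS1*, *LDOX*, *BAN*, *TT10*, *TT12*, *AHA10*, *GSTF12* or the gene of flavonoid 3′-hydroxylase (*TT7*). Of 13 regulators of the pathway, 3 were targets, 23.1% (8.18 to 50.3), against 35.4% at the same upstream distances: *MYB111* (3.81), *TTG1* (3.79) and *MYB12* (3.54), all below the median peak. *TT2*, *TT8* and *TT16*, which act with TT1 in the seed coat, had none. *TT1* itself (chr1:12763902-12765686) had no peak, and the nearest lay 25687 bp away at the protein phosphatase 2C gene AT1G34750.

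Of 16 leaf senescence genes, a process in which chlorophyll and protein are broken down, 9 were targets, 56.3% (33.2 to 76.9). The share was 26.9% for all protein-coding genes and 30.6% for those with the same upstream distances. With the window ending 150 bp downstream it was 43.8% (23.1 to 66.8) for the list, against 24.2% of all protein-coding genes. With each peak given to every gene in range it was 56.3% (33.2 to 76.9), against 33.6%. Under both alternatives the interval holds the share of all protein-coding genes. *SAG12* and *RAV1* are targets through summits near the window edges, at 919 and −1478 bp. The list shares members such as *WRKY53* and *NAP* with the WRKY and NAC classes above. The list follows a process that the study describes in plants expressing TT1. The bound members were mostly transcription factors, of which the list itself holds many, bound or not. *WRKY53* had 3 peaks, of 6.68, 3.22 and 3.39, at −1307, −33 and 828 bp, and *WRKY6* (5.81 and 6.67), *ORE1* (5.17 and 5.50) and *NAP* (4.38 and 7.17) had 2 each. *RAV1* (6.72), *JUB1* (3.63) and *ATAF1* (2.66) had 1. The markers *SAG12* and *SAG13* had weak peaks of 3.26 and 3.89. The 4 enzymes and regulators of chlorophyll breakdown on the list, *NYE1*, *PPH*, *NYC1* and *PAO*, had none, nor had *BFN1*, *ORS1* and *EIN3*. Of 10 genes of cell death and the oxidative burst, 6 were targets, 60% (31.3 to 83.2), against 26.9% of all protein-coding genes and 29.8% at the same upstream distances. *RBOHD*, the oxidase of the immune oxidative burst, had 2 peaks, 7.16 and 5.78, and *GAMMA-VPE*, a vacuolar protease, had 6.28 and 3.30. *ACD6* (4.81), *LOL1* (4.29), *MC1* (3.89) and *RBOHF* (3.16) had 1 each, and *LSD1*, *BI1*, *ACD2* and *ACD11* had none.

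Motifs were searched within 100 bp of each summit on both strands. A W-box was present in 31.8% (31.0 to 32.6) of the summit windows, against 20% of 192097 windows of the same length tiling the sequence upstream of protein-coding genes and 20.8% of windows 500 bp from the same summits. The GAGA repeat was present in 16.0% (15.4 to 16.6), against 5.41 and 6.23% in the same backgrounds. ACGTG was present in 29.0% (28.2 to 29.7), against 14.6 and 15.4%, and the G-box CACGTG in 9.91% (9.41 to 10.4), against 2.96 and 3.34%. At least 1 of W-box, GAGA repeat and ACGTG was found in 61.0% of the summit windows, against 35.3% of the upstream windows. The summit windows were richer in G and C, 36.5% against 33.6%, and the part of base composition in these shares was not tested. A match is a string of letters and does not show what binds there.

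The motifs differed in their relation to peak strength. The W-box share was 32.1, 31.4, 31.2 and 32.5% in the quartiles of fold enrichment from weakest to strongest. The GAGA repeat share was 13.1% (12.0 to 14.3), 15.7, 16.4 and 18.8% (17.5 to 20.2), and the ACGTG share was 27.0, 28.3, 28.2 and 32.4%. Peaks with a W-box had a median fold enrichment of 3.99, against 3.99 without one, and peaks with a GAGA repeat had 4.14, against 3.97 without one. The 121 summits with all of W-box, GAGA repeat and ACGTG had 4.57, and the 5033 with none had 3.92. The GC content was 35.7% in the weakest decile of the peaks and 38% in the strongest.

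They also differed in where they lay. Counted in bins of 25 bp around the summits, the GAGA repeat was 5.87 times as dense at the summit as in the outer bins, and its density fell below the midpoint between them beyond 75 bp on either side. The W-box was at most 1.77 times as dense as in the outer bins. Its highest bin lay 50 to 75 bp from the summit, and the bins next to the summit held less, 1.46 and 1.53 times the outer density. ACGTG reached 2.43 times and the G-box 3.45 times.

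**Figure D5:**
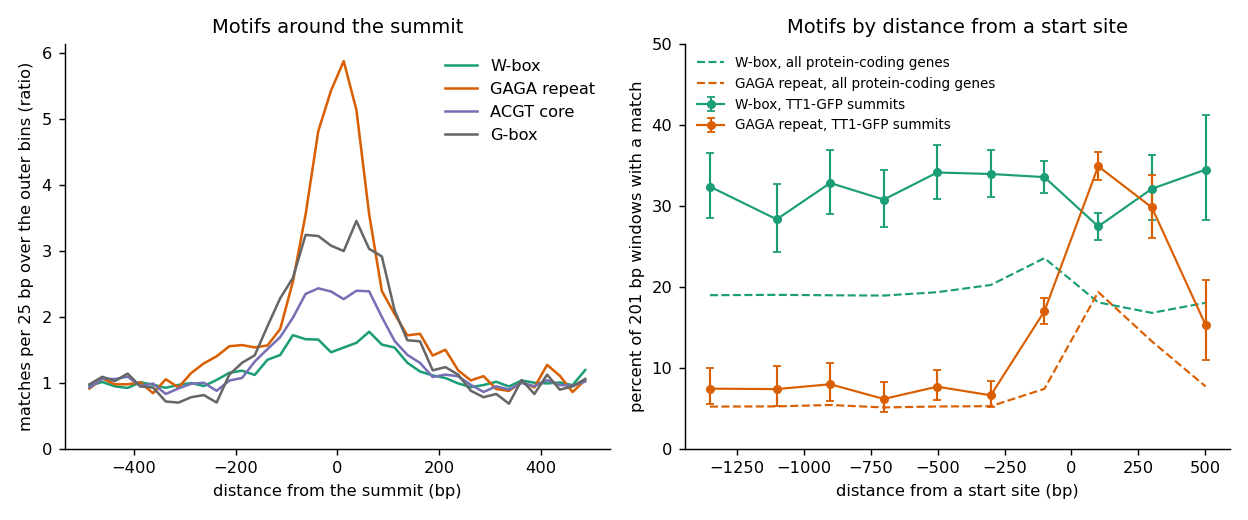
Left, density of motif matches in bins of 25 bp around the TT1-GFP summits, as a ratio to the bins farthest out, where the GAGA repeat reaches 5.87 and the W-box 1.77. Right, percent of windows reaching 100 bp to either side with a match by distance from a start site (bp, negative upstream), for TT1-GFP summits (points, 95% Wilson intervals) and for windows at the same distances at all protein-coding genes (dashed).

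The GAGA repeat was found most often at summits just downstream of a start site. Among summits so far upstream of a start site, up to 1500 bp, that the window did not reach it, 7.12% (6.35 to 7.97) had a GAGA repeat, against 5.24% of windows at these distances upstream of all protein-coding genes. Closer to the start site on the upstream side the share was 17.0% (15.4 to 18.7), against 7.40%, and from 0 to 200 bp downstream it was 34.9% (33.1 to 36.7), against 19.4%. In the 5′ UTR 37.8% (36.1 to 39.6) of the summits had one, against 8.48% (7.86 to 9.14) of the intergenic summits. The W-box share varied less with position. It was 32.5% (31.0 to 33.9) far upstream, against 19.2%, 33.6% (31.6 to 35.6) just upstream, against 23.6%, and 27.5% (25.8 to 29.1) just downstream, against 18.1%. The GAGA repeat share was also higher in stronger peaks around the start site. Just upstream it was 11.4% (8.98 to 14.4) in the weakest and 21.2% (17.9 to 24.9) in the strongest quartile, and in the 200 bp downstream 29.5% (26.2 to 33.0) and 39.6% (36.0 to 43.3). From there to 1000 bp downstream it was 13.6% (10.3 to 17.7) in the weakest and 27.9% (22.4 to 34.2) in the strongest. Far upstream the shares in these quartiles were 6.69% (5.27 to 8.45) and 8.55% (6.98 to 10.4), with intervals that overlap. The ACGTG share far upstream was 27.7% (24.9 to 30.6) in the weakest quartile and 35.4% (32.5 to 38.4) in the strongest.

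The share of strongest peaks with a W-box or a GAGA repeat varied between gene classes. A W-box lay at 31.8% (30.7 to 32.9) of the strongest peaks of all 7391 protein-coding targets. It lay at 34 of 65 bound NBS-LRR genes, 52.3% (40.4 to 64.0), at 55 of 112 receptor-like kinase genes, 49.1% (40 to 58.2), at 24 of 48 calmodulin-like and EF-hand genes, 50.0% (36.4 to 63.6), at 13 of 25 glutathione S-transferase genes, 52.0% (33.5 to 70.0), and at 24 of 51 WRKY genes, 47.1% (34.1 to 60.5). In the windows tiling the upstream sequence of all members of these classes, bound or not, the W-box share was between 19.4 and 25.3%. At the strongest peaks of homeobox genes it was lower, with 18 of 94, 19.1% (12.5 to 28.3), against 19.6% in the upstream windows of that class. The GAGA repeat was found at 20.1% (19.2 to 21.0) of the strongest peaks of all protein-coding targets. The interval lay above this share at bZIP genes, with 11 of 24, 45.8% (27.9 to 64.9), and at xyloglucan endotransglucosylase genes, with 6 of 14, 42.9% (21.4 to 67.4). It lay below at NBS-LRR genes, with 6 of 65, 9.23% (4.30 to 18.7), at UDP-glycosyltransferase genes, with 7.14%, and at pectin methylesterase and pectin lyase-like genes, with 5%. The intervals of the small classes are wide, and these differences were not tested.

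Counting all 2080 sequences of 6 bp within 50 bp of the summits gave the same motifs and others rich in CG. By the difference from windows 500 bp away GAGAGA came first, present at 19.2% of summits against 9.01% away from them. AAGTCA, which overlaps the W-box, was present at 10.9% against 6.45%. Among sequences present at 2% or more of the summits the highest ratios were those of ACGCGC (2.22% against 0.67%), CACGCG (2.94% against 0.92%) and the G-box CACGTG (5.40% against 1.69%). CGTGAG followed at 4.59% against 1.61% and GGGACC at 3.08% against 1.13%.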

How the data were processed

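The authors mapped the reads with BWA, selected uniquely mapped reads (SAMtools), discarded duplicates (Picard) and ran MACS2 2.1.2 on the TAIR10 genome, with the input of the same line as control. The deposited peak list gives the authors' fold enrichment as a ratio, their −log10 p-value and −log10 q-value, and a score, which in the deposited file is 10 times the −log10 q-value without decimals. All 12908 deposited peaks were used. Start sites (51778), genes (37899) and sequences come from the TAIR10.1 RefSeq annotation and genome, whose chromosome lengths no peak exceeds. The summit was assigned to the nearest start site, ties going to the lower coordinate. The study's methods give an upper bound of 150 bp for the window, which was tried as an alternative to 1000 bp.

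Gene classes were matched by symbol or product name, leaving out names that mention a domain of unknown function in brackets. Members, classes and lists were chosen with earlier results of these data known. Named genes are the 20 protein-coding targets with the highest fold enrichment, the 10 targets with most peaks (ties by summed fold enrichment), those of the 5 widest and 5 most significant target peaks, up to 3 of each class, and *TT1*; members of the short lists and strong peaks outside the window are named as well. Assignment was checked with simulated summits around isolated start sites, and the motif search with motifs planted in simulated sequence of A and T. Closely spaced start sites, where the nearest one decides the target, were not part of this check. Python 3.11.15 with numpy 2.4.6 and scipy 1.17.1 was used, and the alternatives tried were other start sites, every gene in range, the peak centre, a −log10 q of at least 20 and narrower motif windows.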

Additional observations from a re-analysis of the deposited data

How the results depend on the processing

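No paired analysis was possible because there is 1 ChIP library, and no replicate could be left out. Counts of targets moved by less than 1.5 times under the other start sites, peak centres, the narrower window and the stricter q threshold. Giving each peak to every gene whose window holds its summit, an alternative chosen after seeing the data, left 11148 targets and 2284 genes with 2 or more peaks. The share of protein-coding genes that are targets was 24.2% with the upper bound at 150 bp, 28.2% with start sites of protein-coding genes only, 24.9% with a −log10 q of at least 20 and 33.6% with every gene in range. The share of summits within 500 bp of a start site was 52.1% with 1 start site per gene and 48.5% with protein-coding start sites. With a −log10 q of at least 20 the median fold enrichment was 4.15 and the median width 356 bp. Within 50 bp of the summit, in place of 100 bp, the W-box share was 16.6%, GAGA repeat 10.8%, ACGTG 16.9% and G-box 5.40%, and around peak centres the GAGA repeat share was 15.3%. For the 26 classes and lists whose interval lay off the share of all protein-coding genes, the class share kept its side under all 6 alternatives to the target rule. The WRKY share lay between 63.5 and 70.3%. Some intervals came to hold the share of all protein-coding genes. With a −log10 q of at least 20 the bZIP interval did (23.3 to 46.3, against 24.9%). With every gene in range the MYB interval did (30.8 to 45.7, against 33.6%), and with the 150 bp bound that of leaf senescence did. The depth is unknown, so absence of a peak is not absence of binding.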

Other observations

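Outside the target window lay 2980 peaks, 23.1% of all, which were as strong as the others, with a median fold enrichment of 3.99 in both groups. Of these, 1296 were more than 1500 bp upstream of the nearest start site and 1684 more than 1000 bp downstream. The strongest were nearest to *PHB3*, a prohibitin gene (10.2, summit at −1874 bp, upstream of the start site), AT1G06148 (10.11, −1924 bp) and the sucrose transporter gene *SUC1* (9.71, −5308 bp). The next were nearest to *LBD37* (9.6, 2613 bp downstream) and *LBD38* (9.45, 1879 bp downstream), related genes of nitrogen-responsive repressors that also limit anthocyanin synthesis. These genes were named after their values were seen.

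Among genes that are not protein-coding the share of targets was 23.5% (18.4 to 29.5) for 221 ncRNA genes, 21.9% (18.5 to 25.6) for misc_RNA genes, 20.7% (13.4 to 30.7) for 82 snRNA genes, 18.4% (17.1 to 19.7) for long non-coding RNA genes, 12.0% (8.88 to 15.9) for 326 miRNA genes, 10.9% (8.67 to 13.6) for 625 tRNA genes, 8.86% (4.36 to 17.2) for 79 antisense RNA genes, 7.02% (5.55 to 8.85) for 926 transcribed pseudogenes, 5.23% (3.19 to 8.44) for 287 snoRNA genes and 1.33% (1.01 to 1.74) for 3917 pseudogenes. The miRNA genes with the strongest peaks were *MIR827* (6.60) and *MIR172e* (6.43), which act in phosphate balance and flowering, with summits 678 and 571 bp downstream of the annotated start of the precursor. Both summits lay beyond the annotated 3′ end of the precursor, and the genes are targets because the window reaches 1000 bp downstream. The tRNA gene with the strongest peak was AT1G72780 (7.58), with the summit 481 bp downstream of its start and also beyond the end of the gene.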
